A study of Mus musculus with 4 samples.

Results

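The mitochondrial protein import machinery was examined in ventricles of mice that overexpress Cdk8, the cyclin-dependent kinase of the Mediator complex, specifically in the heart. Its members were taken by symbol: every row starting with Timm or Tomm, together with Hspd1, Hspe1, Hspa9, Pam16, Pmpca, Pmpcb, Grpel1, Samm50, Lonp1 and Clpp, which gave 35 of 23847 rows. The Cdk8Tg group held 2 libraries and the wild-type (WT) group 2 libraries, all of polyadenylated ventricular RNA taken at postnatal day 21 from males on the C57BL/6 background. The labels state neither the promoter that drives the transgene nor whether each library is a separate animal, so that p-values measure only the spread between libraries, which may be technical.

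Most mitochondrial proteins are made in the cytosol and enter the organelle through a chain of machines. The TOM complex of the outer membrane is the common gate. From there the SAM complex inserts barrel-shaped proteins into the outer membrane, small Tim chaperones and the TIM22 complex deliver carriers to the inner membrane, and the TIM23 complex threads proteins that bear a presequence into the matrix, where a motor built around mitochondrial Hsp70 pulls them in. A processing peptidase then removes the presequence, the Hsp60 and Hsp10 chaperonin folds the new proteins, and matrix proteases degrade those that fail. Ventricular muscle is rich in mitochondria and depends on this supply.

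Cdk8 itself, on chromosome 5 at 146231230 to 146302874 (mm10), was at 7309 and 8122 FPKM (fragments per kilobase of transcript, scaled to library size) in Cdk8Tg ventricles, against 7.89 and 9.86 FPKM in WT ventricles, in accord with the labels. Steps between the lowest FPKM values put the depth at 11.7 to 12.3 M fragments in Cdk8Tg and at 13.8 to 13.9 M in WT, if each library was scaled by its own total, which is not stated. A transcript of 1 kb at 10 FPKM then rests on 117 to 139 fragments. Markers of other cells moved as well. Of 6 cardiomyocyte markers, 4 fell and 0 rose, and their summed level was 22289 to 23498 FPKM in Cdk8Tg and 32690 to 33772 FPKM in WT. Of 5 fibroblast markers, 4 rose and 0 fell, with sums of 687 to 837 FPKM in Cdk8Tg and 556 to 559 FPKM in WT. Of the 4 endothelial and 5 smooth muscle or pericyte markers none was called by limma, and of 4 macrophage markers 1 fell. The erythroid rows, none of them called, summed to 5240 and 3702 FPKM in Cdk8Tg and to 5101 and 7645 FPKM in WT, ranges that overlap and differ between libraries of a group. Atrial markers summed to 81.2 and 344 FPKM in Cdk8Tg and to 275 and 25.4 FPKM in WT, so they did not follow the groups. In such bulk tissue, fewer cells of a type and less RNA per cell cannot be told apart, and the part of these shifts in the results on import genes was not tested.

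Single components of the import machinery moved in opposite directions, while the summed level overlapped between the groups on the deposited scale. The 35 members summed to 2467 and 2345 FPKM in Cdk8Tg and to 2431 and 2360 FPKM in WT, ranges that overlap. As a share of each library's FPKM sum, which was smaller in Cdk8Tg, they took 0.550% and 0.533% in Cdk8Tg and 0.476% and 0.464% in WT, ranges that do not. Median-of-ratios scaling, described below, divides the Cdk8Tg libraries by 1.04 and 1.06 and the WT libraries by 0.958 and 0.944. It thus lowers the Cdk8Tg sums and raises the WT sums, so the direction of the summed difference depends on the scale. Of the 35 members, 33 reached a mean of 1 FPKM over the 4 libraries and were tested, with means of 10.1 to 288 FPKM. Changes were tested with limma on log2(FPKM + 1) over all 11888 genes that passed this filter, and a gene was called at a Benjamini-Hochberg adjusted p under 0.05. On this scale 4 members rose (Hspe1, Tomm34, Hspd1 and Pmpcb) and 4 fell (Samm50, Timm23, Timm44 and Pam16), while 25 were not called. That is 24.2% of the tested members, against 24.9% of all tested genes, so the share of changed members was near the background. By direction, 12.1% of the members rose against 16.9% of all genes, and 12.1% fell against 7.98% of all genes. The groups did not overlap for 23 of the 33 members (69.7%), against 70.3% of all tested genes. The median log2 change of the members was 0.00, and that of all tested genes was 0.13.

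**Figure D1:**
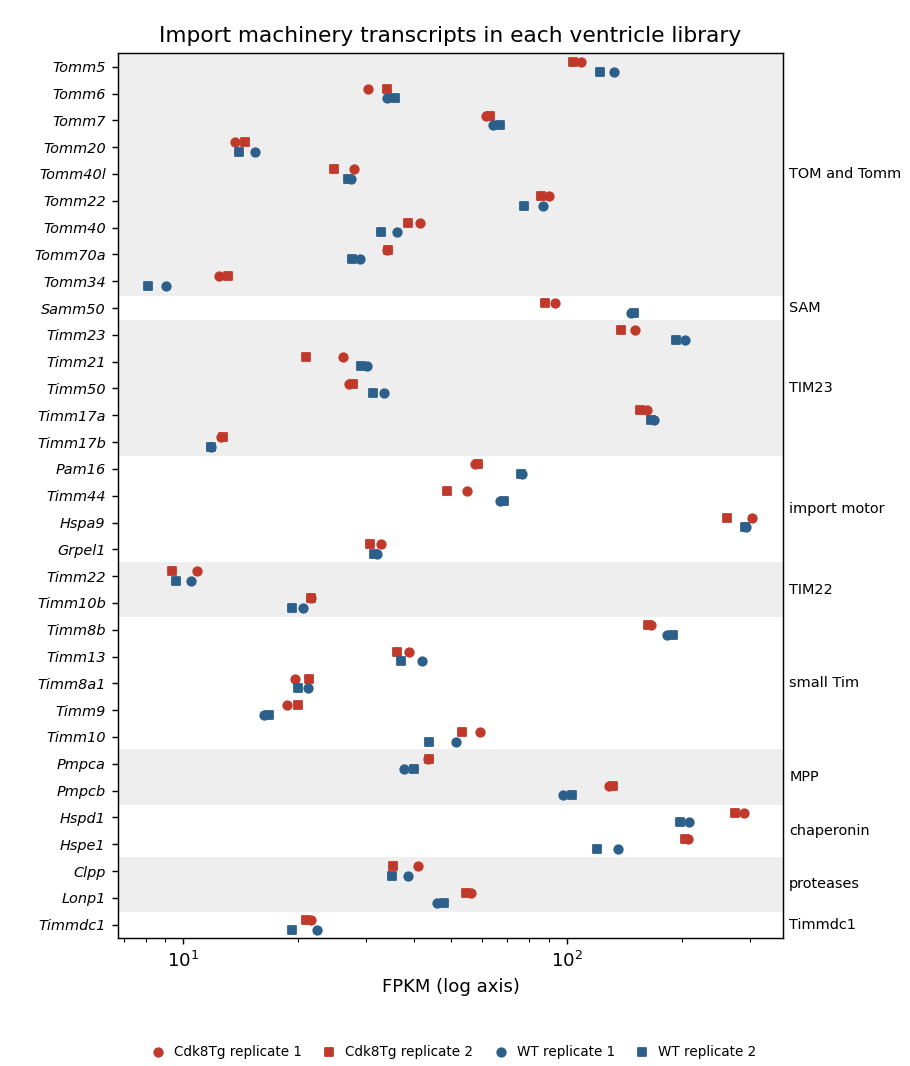
FPKM (log axis) of the 33 tested members in each library, with Cdk8Tg in red above WT in blue and replicate 1 as circles and replicate 2 as squares, grouped by role. Samm50, Timm23, Timm44 and Pam16 lie lower in both Cdk8Tg libraries than in both WT libraries, and Hspd1, Hspe1, Pmpcb and Tomm34 lie higher.

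That offset of 0.13 matters for small changes. After median-of-ratios scaling, which sets the median of all genes to 0.00, 2 members rose (Hspe1 and Tomm34) against a background of 7.96%, and 7 fell against a background of 11.7%. The additional falls were Timm50, Timm8b and Tomm5, and the members' median was -0.14. With quantile normalization 4 rose and 3 fell, against backgrounds of 8.34% and 8.74%. With every library set to the same FPKM sum 13 rose and 1 fell, against backgrounds of 41.2% and 5.49%. The rises added on that last scale were Lonp1, Pmpca, Timm10, Timm10b, Timm17b, Timm9, Tomm22, Tomm40 and Tomm70a. Samm50 fell, and Hspe1 and Tomm34 rose, under each of these 4 scales. Each of the 8 called members kept its direction under all of them. Most of the 8 calls were lost without Cdk8Tg replicate 2 or without WT replicate 1, and all were lost without WT replicate 2. None was lost without Cdk8Tg replicate 1. Each such fit leaves a lone library in 1 group, and all 8 members kept their direction in these fits.

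**Figure D2:**
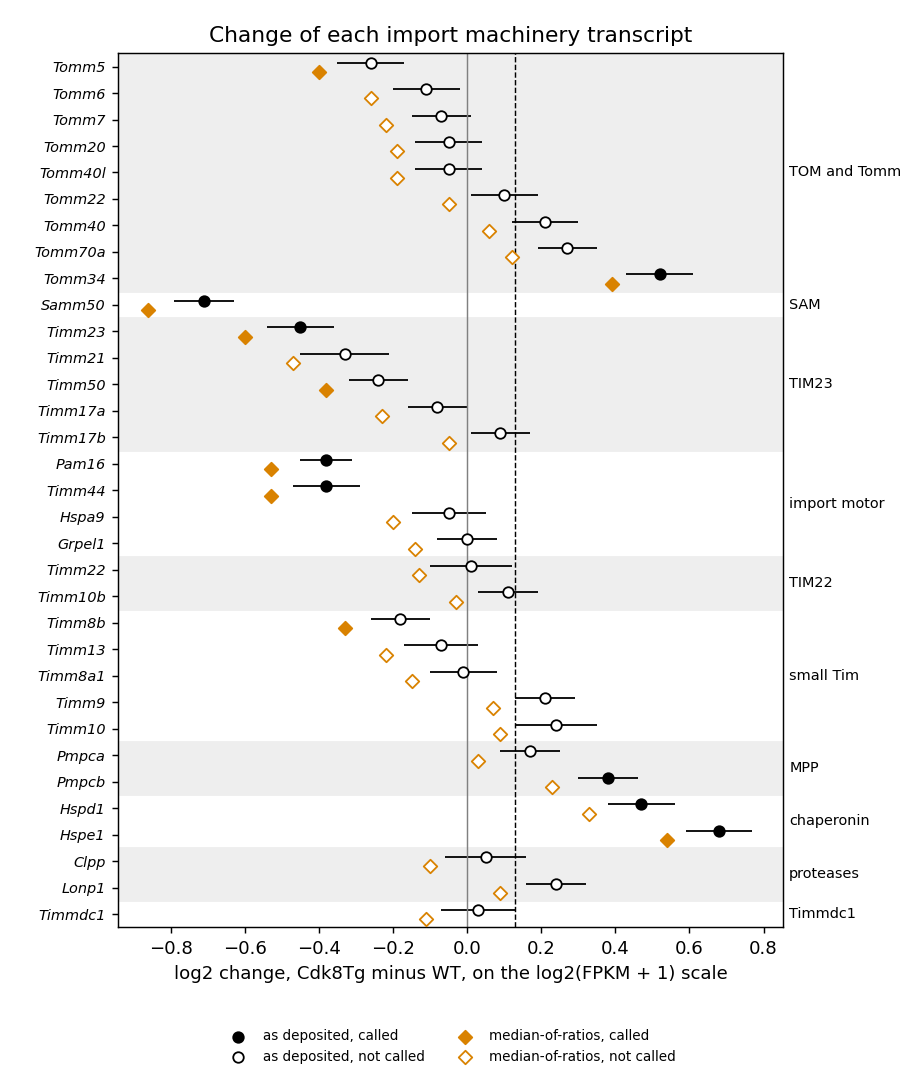
Log2 change, Cdk8Tg minus WT, of each tested member on the deposited scale (circles, with the SE from limma) and after median-of-ratios scaling (diamonds), where filled symbols passed the test and the dashed line marks the median of all tested genes on the deposited scale, 0.13. Samm50 lies lowest at -0.71 and Hspe1 highest at 0.68.

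At the outer membrane, no gene of the entry gate was called, and the single called gene of the Tomm name group, Tomm34, encodes a cytosolic cochaperone. Of the 10 rows starting with Tomm, 9 were tested, 1 rose and 0 fell. Tomm40, the channel of the TOM complex, measured 41.4 and 38.5 FPKM in Cdk8Tg ventricles, against 36.1 and 32.8 FPKM in WT ventricles, giving a log2 change of 0.21 ± 0.09 by limma (SE; Benjamini-Hochberg adjusted p = 0.14). Both Cdk8Tg libraries were above both WT libraries, but the difference did not pass the test. Tomm70a, a receptor that takes carriers and other hydrophobic precursors from cytosolic chaperones, measured 34.1 and 34.3 FPKM in Cdk8Tg ventricles, against 29.0 and 27.5 FPKM in WT ventricles (log2 change 0.27 ± 0.08, limma adjusted p = 0.059). The presequence receptor Tomm20 measured 13.7 and 14.5 FPKM in Cdk8Tg ventricles, against 15.4 and 14.0 FPKM in WT ventricles, and its groups overlapped. Tomm22, the central receptor that also organizes the complex, measured 89.7 and 85.9 FPKM in Cdk8Tg ventricles, against 86.7 and 77.6 FPKM in WT ventricles, again overlapping.

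The small subunits around the channel had negative log2 changes that did not pass the test. Tomm5, the most abundant of the group, measured 109 and 104 FPKM in Cdk8Tg ventricles, against 133 and 122 FPKM in WT ventricles, giving a log2 change of -0.26 ± 0.09 (limma adjusted p = 0.081). It was called lower after median-of-ratios scaling (limma adjusted p = 0.031). Tomm6 and Tomm7 had log2 changes of -0.11 and -0.07 with no call, and both were positive on the equal-sum scale (0.08 and 0.12). Of the 31-base stretches of Tomm6, 71.8% also occur in Gm21981, a gene that overlaps it in the same orientation, which leaves its level uncertain. Tomm40l, a paralog of Tomm40, measured 27.9 and 24.7 FPKM in Cdk8Tg ventricles, against 27.4 and 26.9 FPKM in WT ventricles. Within a library, Tomm40 was 1.48 and 1.56 times Tomm40l in Cdk8Tg and 1.32 and 1.22 times Tomm40l in WT.

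Tomm34 carries the family's name, although the protein is a cytosolic cochaperone that binds Hsp70 and Hsp90. It measured 12.4 and 13.1 FPKM in Cdk8Tg ventricles, against 9.02 and 8.13 FPKM in WT ventricles, with means of 12.8 ± 0.515 and 8.57 ± 0.630 FPKM (SD, n = 2 each). It rose by 0.52 ± 0.09 on the log2 scale by limma (SE; Benjamini-Hochberg adjusted p = 0.019). The call was lost with no filter, in the authors' calls, without Cdk8Tg replicate 2 and without either WT library, with adjusted p-values from limma of 0.041 to 0.11 over the 4 libraries left out in turn. Tomm20l, a relative of Tomm20, was listed at 0 in both Cdk8Tg libraries and in WT replicate 2, had 0.156 FPKM in WT replicate 1, and was not tested.

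Samm50 showed the largest fall of all 33 tested members. It encodes the barrel-shaped core of the SAM complex, which inserts proteins such as Tomm40 and the VDAC porins into the outer membrane and also contacts the MICOS complex that shapes the cristae. Samm50, on chromosome 15 at 84192241 to 84217267 of mm10, measured 93.2 and 87.7 FPKM in Cdk8Tg ventricles, against 147 and 150 FPKM in WT ventricles. The means were 90.5 ± 3.94 FPKM in Cdk8Tg and 149 ± 2.45 FPKM in WT (SD, n = 2 each), so that Cdk8Tg ventricles held 60.8% of the WT level. Its log2 change was -0.71 ± 0.08 by limma (SE; Benjamini-Hochberg adjusted p = 0.0071). It ranged from -0.87 to -0.52 over the 15 alternatives, and 14 of these kept the call. An annotated gene of the same strand, Gm49513, overlaps its exons, and 1.49% of its 31-base stretches occur in other annotated genes. The lost call was that without WT replicate 2 (log2 change -0.69, limma adjusted p = 0.067). Samm50 was 2.25 and 2.28 times Tomm40, its barrel-shaped client, in the Cdk8Tg libraries and 4.07 and 4.58 times Tomm40 in the WT libraries. Such ratios within a library do not depend on a single scaling factor per library, though quantile normalization can alter them. With 2 libraries a group, an exact two-sided permutation test of such a ratio cannot go below p = 0.333, the value reached by each of the 9 ratios computed.

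As the control regions of the 2 members whose log2 changes were lowest, Samm50 and Timm23, the 250 bases before the RefSeq start of each gene are shown (GRCm38.p6; Samm50 on the plus strand at chr15:84191990-84192239, Timm23 on the minus strand at chr14:32201892-32202141). Capitals mark matches to any of 5 motifs searched on both strands: the heat shock element GAANNTTC, the core GCGCANGCG bound by NRF1, the ETS core ACTTCCGG, the CHOP and ATF composite TTGCATCA and the ERR element TCAAGGTCA. None of these letters was found in the Samm50 window, and the Timm23 window held an ETS core 40 bases before its end.
Samm50: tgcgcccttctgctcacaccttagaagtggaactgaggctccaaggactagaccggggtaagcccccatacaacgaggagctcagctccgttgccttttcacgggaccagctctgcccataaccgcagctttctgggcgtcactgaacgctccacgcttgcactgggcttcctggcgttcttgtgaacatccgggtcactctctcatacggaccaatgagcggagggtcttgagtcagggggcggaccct
Timm23: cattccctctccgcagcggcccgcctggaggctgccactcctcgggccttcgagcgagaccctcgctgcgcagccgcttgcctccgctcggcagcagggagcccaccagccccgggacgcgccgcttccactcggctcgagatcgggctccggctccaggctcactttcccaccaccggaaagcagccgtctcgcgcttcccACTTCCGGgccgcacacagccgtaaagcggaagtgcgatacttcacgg

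In the presequence pathway of the inner membrane, the channel gene Timm23 fell and its partners were not called. Of the 5 TIM23 genes 1 fell and 0 rose, and their summed level was 378 and 355 FPKM in Cdk8Tg and 448 and 432 FPKM in WT. Timm23, which forms the translocase together with Timm17a, measured 151 and 139 FPKM in Cdk8Tg ventricles, against 203 and 193 FPKM in WT ventricles. The groups did not overlap, with means of 145 ± 8.45 FPKM in Cdk8Tg and 198 ± 6.80 FPKM in WT (SD, n = 2 each). The log2 change was -0.45 ± 0.09 by limma (SE; Benjamini-Hochberg adjusted p = 0.022), and it was not called after scaling to an equal FPKM sum (log2 change -0.25, limma adjusted p = 0.053), nor when all rows were fitted, nor without Cdk8Tg replicate 2 or either WT library. Of its 31-base stretches 63.5% also occur in other annotated genes, so reads may have been split among near-identical copies. Timm17a measured 162 and 155 FPKM in Cdk8Tg ventricles, against 169 and 166 FPKM in WT ventricles (log2 change -0.08 ± 0.08, limma adjusted p = 0.47). Timm23 was 0.929 and 0.892 times Timm17a in Cdk8Tg and 1.20 and 1.16 times Timm17a in WT, ranges that do not overlap.

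Timm50, the receptor that takes over presequences as they leave the TOM channel, measured 27.1 and 27.7 FPKM in Cdk8Tg ventricles, against 33.5 and 31.3 FPKM in WT ventricles (log2 change -0.24 ± 0.08, limma adjusted p = 0.086, and 0.029 after median-of-ratios scaling). Timm21, which links the TIM23 and TOM complexes, measured 26.1 and 20.9 FPKM in Cdk8Tg ventricles, against 30.2 and 29.1 FPKM in WT ventricles (limma adjusted p = 0.098). Timm17b, a paralog of Timm17a, measured 12.6 and 12.7 FPKM in Cdk8Tg ventricles, against 11.8 and 11.8 FPKM in WT ventricles. Of these TIM23 genes it alone had a positive log2 change, 0.09, which was negative after median-of-ratios scaling (-0.05) and quantile normalization (-0.03).

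Of the 4 import motor genes, Timm44 and Pam16 fell, and Hspa9 and Grpel1 were not called. Timm44, the scaffold that tethers Hsp70 to the channel, measured 55.0 and 48.8 FPKM in Cdk8Tg ventricles, against 67.0 and 68.7 FPKM in WT ventricles, giving a log2 change of -0.38 ± 0.09 by limma (SE; Benjamini-Hochberg adjusted p = 0.036). Pam16, which holds and restrains the J-protein of the motor, measured 57.8 and 58.9 FPKM in Cdk8Tg ventricles, against 76.7 and 75.9 FPKM in WT ventricles, giving a log2 change of -0.38 ± 0.07 (limma adjusted p = 0.023). For both genes the Cdk8Tg libraries lay below the WT libraries. Timm44 was called in 8 of 15 alternatives and Pam16 in 10, and neither with an equal FPKM sum (limma adjusted p = 0.13 and 0.093). Of the 31-base stretches of Pam16, 20.8% occur in other annotated genes.

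Hspa9, the mitochondrial Hsp70 that drives the motor, measured 305 and 262 FPKM in Cdk8Tg ventricles, against 294 and 292 FPKM in WT ventricles, and the WT values lay between the Cdk8Tg values. Its log2 change was -0.05 ± 0.10 (limma adjusted p = 0.73). Grpel1, its nucleotide exchange factor, measured 32.9 and 30.8 FPKM in Cdk8Tg ventricles, against 32.0 and 31.5 FPKM in WT ventricles, with means of 31.8 ± 1.49 and 31.8 ± 0.362 FPKM (SD, n = 2 each). Timm44 stood at 0.181 and 0.186 times Hspa9 in Cdk8Tg and at 0.228 and 0.235 times Hspa9 in WT.

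The carrier branch held no called gene. Timm22, the channel for carriers such as the ADP/ATP exchanger, measured 10.9 and 9.35 FPKM in Cdk8Tg ventricles, against 10.5 and 9.60 FPKM in WT ventricles, giving a log2 change of 0.01 ± 0.11. Timm10b, which docks the small Tim chaperones on it, measured 21.5 and 21.5 FPKM in Cdk8Tg ventricles, against 20.6 and 19.2 FPKM in WT ventricles. Of 6 small Tim genes 5 were tested and none was called by limma, whereas 1 had an unadjusted p under 0.05, against 4950 of all 11888 tested genes. Timm8b, the most abundant, measured 166 and 163 FPKM in Cdk8Tg ventricles, against 183 and 189 FPKM in WT ventricles (log2 change -0.18 ± 0.08, limma adjusted p = 0.15, and 0.048 after median-of-ratios scaling). Its partner Timm13 had a log2 change of -0.07. Timm9 and Timm10, which form the main carrier chaperone, had log2 changes of 0.21 and 0.24, with limma adjusted p = 0.11 and 0.17. Timm8a1 had a log2 change of -0.01, and 41.8% of its 31-base stretches occur in another annotated gene, and Timm8a2 was listed at 0 in all 4 libraries.

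Behind the channel, 1 of the 2 processing peptidase genes and both chaperonin genes rose. The peptidase that removes presequences is a dimer of Pmpca and Pmpcb, and Pmpcb holds the catalytic site. Pmpcb measured 129 and 132 FPKM in Cdk8Tg ventricles, against 97.6 and 103 FPKM in WT ventricles, and it rose by 0.38 ± 0.08 on the log2 scale by limma (SE; Benjamini-Hochberg adjusted p = 0.027). Median-of-ratios scaling ended that call (log2 change 0.23, limma adjusted p = 0.11), as did fitting all rows and leaving out Cdk8Tg replicate 2 or either WT library. Pmpca measured 43.5 and 43.9 FPKM in Cdk8Tg ventricles, against 37.6 and 39.9 FPKM in WT ventricles, with no call (limma adjusted p = 0.16). The Pmpcb level was 2.97 and 3.01 times that of Pmpca in Cdk8Tg and 2.60 and 2.59 times in WT.

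Both chaperonin genes rose. Hspd1 encodes Hsp60, the barrel in which matrix proteins fold, and Hspe1 encodes Hsp10, its lid. Hspe1 measured 207 and 204 FPKM in Cdk8Tg ventricles, against 136 and 120 FPKM in WT ventricles, with means of 205 ± 2.35 and 128 ± 11.2 FPKM (SD, n = 2 each), or 1.61 times the WT level. Its log2 change of 0.68 ± 0.09 was the largest rise among the members by limma (SE; Benjamini-Hochberg adjusted p = 0.011), and 14 of 15 alternatives kept the call, all but the fit without WT replicate 2 (limma adjusted p = 0.084). Hspd1 measured 290 and 274 FPKM in Cdk8Tg ventricles, against 209 and 197 FPKM in WT ventricles, 1.39 times the WT level, and rose by 0.47 ± 0.09 on the log2 scale (limma, Benjamini-Hochberg adjusted p = 0.019). The Hspd1 call was lost after median-of-ratios scaling (log2 change 0.33, limma adjusted p = 0.057), with no filter, in the authors' calls, and without either WT library. In the 4 libraries the groups of both genes did not overlap. Summed, the chaperonin genes held 498 and 477 FPKM in Cdk8Tg and 344 and 317 FPKM in WT. Hspd1 was 0.953 and 1.04 times Hspa9, the matrix Hsp70, in Cdk8Tg and 0.711 and 0.674 times Hspa9 in WT. Hspd1 and Hspe1 share 50.1% and 24.8% of their 31-base stretches with other annotated genes, among them Hspd1-ps3 and Hspe1-ps5. This leaves their levels uncertain by an amount that was not measured.

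The 2 chaperonin genes lie head to head on chromosome 1, with Hspd1 on the minus strand and Hspe1 on the plus strand, and their RefSeq starts at 55087932 and 55088148 (GRCm38.p6) are 216 bases apart. The 215 bases between the starts are shown as the stretch that this pair of rising genes shares (plus strand, chr1:55087933-55088147), with motif matches in capitals.
Hspd1-Hspe1: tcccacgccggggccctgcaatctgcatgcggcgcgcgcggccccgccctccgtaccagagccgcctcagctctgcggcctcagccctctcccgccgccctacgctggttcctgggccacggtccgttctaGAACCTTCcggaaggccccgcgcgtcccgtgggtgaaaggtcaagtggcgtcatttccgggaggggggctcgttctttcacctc
The single match was the heat shock element, as GAACCTTC, which ends 76 bases before the end of the stretch. No CHOP and ATF composite was found there. An alternative Hspd1 start lies within Hspe1, so exons of the pair overlap on opposite strands, and the strand setting of the quantification is not given.

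Motif matches among the members were few. RefSeq windows were used for 31 of the 35 members, with 34 windows of 250 bases. Windows on chromosome 18, which holds Hspa9 and Timm21, were left out of the members and of the background. The heat shock element was in 8.82% of them (Hspd1, Hspe1 and Timm9), against 6.69% of all 32851 windows and 5.16% of the windows of tested genes. The windows of Hspd1 and Hspe1 overlap, and their matches are 1 and the same site. The NRF1 core was in 11.8% (Hspd1, Pam16, Timm13 and Tomm20), against 5.16% and 10.8%, and the ETS core in 14.7% (Pmpcb, Timm23, Timm8a2, Timmdc1 and Tomm70a), against 2.88% and 5.73%. Timm8a2 was not tested, so the member windows and the windows of tested genes are unlike sets. The ERR element was in 2.94% (Timm8b), against 0.387% and 0.266%, and the CHOP and ATF composite in 0 windows, against 0.791% and 0.523%. The NRF1 match of Hspd1 lies in the window of its alternative start at 55088243. Such matches describe letters in these windows and no binding was measured.

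The proteases that clear the matrix were not called. Lonp1, the main ATP-driven protease of the matrix, measured 56.3 and 54.8 FPKM in Cdk8Tg ventricles, against 46.0 and 47.9 FPKM in WT ventricles, with a log2 change of 0.24 ± 0.08 (limma adjusted p = 0.075). It was called higher only on the equal-sum scale (limma adjusted p = 0.012). Clpp, the proteolytic barrel of the other matrix protease, measured 41.0 and 35.2 FPKM in Cdk8Tg ventricles, against 38.7 and 35.0 FPKM in WT ventricles, groups that overlap. Its log2 change of 0.05 turned to -0.10 after median-of-ratios scaling. Timmdc1, a complex I assembly factor that resembles the Tim17 family, measured 21.5 and 20.9 FPKM in Cdk8Tg ventricles, against 22.4 and 19.2 FPKM in WT ventricles.

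**Figure D3:**
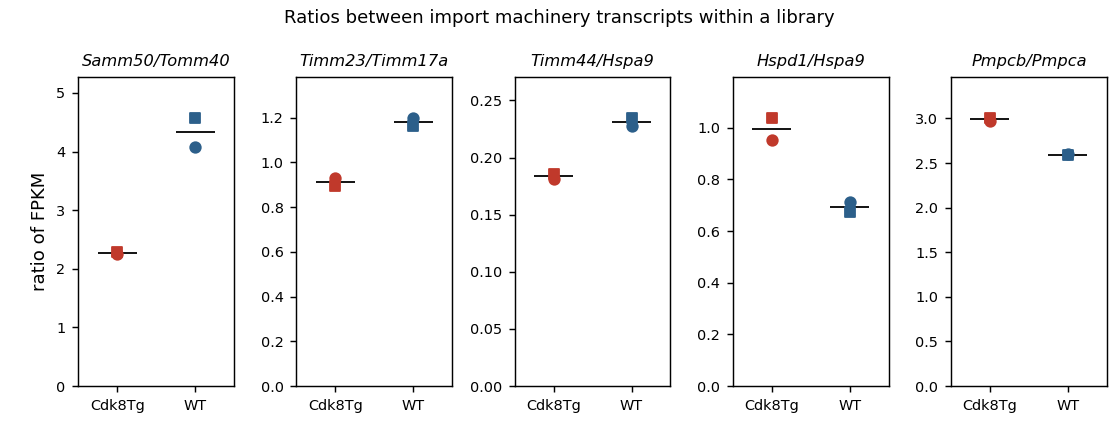
Ratios of FPKM between pairs of import genes within each library, with Cdk8Tg in red left of WT in blue, circles for replicate 1, squares for replicate 2 and black lines for group means. Samm50/Tomm40 averaged 2.27 in Cdk8Tg and 4.32 in WT, and Hspd1/Hspa9 averaged 0.998 and 0.693 in the same groups.

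Among genes that work beside the import machinery, more fell than rose on the deposited scale. Of 44 other genes of import, folding, cristae and quality control, all tested, 10 fell and 2 rose. That is 22.7% falls against 7.98% of all tested genes, and 4.55% rises against 16.9%, while the calls in both directions came to 27.3% against 24.9%. Their median log2 change was -0.07, against 0.13 for all genes. After median-of-ratios scaling 14 fell and 0 rose (backgrounds of 11.7% and 7.96%), with quantile normalization 8 fell and 0 rose (8.74% and 8.34%), and with an equal FPKM sum 7 fell and 11 rose (5.49% and 41.2%). Dnajc19, the J-protein partner of the Hsp70 motor, measured 47.2 and 37.2 FPKM in Cdk8Tg ventricles, against 70.9 and 68.0 FPKM in WT ventricles. It fell by 0.72 on the log2 scale, close to Samm50 in size (SE 0.13; limma, Benjamini-Hochberg adjusted p = 0.018). Unlike Samm50, Dnajc19 was not called with no filter (limma adjusted p = 0.061) or by the authors (authors' deposited table, log2 change -0.87, q = 0.35). Pink1, the kinase that accumulates on mitochondria whose import fails, measured 125 and 113 FPKM in Cdk8Tg ventricles, against 191 and 192 FPKM in WT ventricles, giving a log2 change of -0.68 ± 0.09 (limma adjusted p = 0.0094).

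Some of the remaining falls came from complexes or families in which other listed members were not called. The MICOS subunits Minos1 and Chchd3 changed by -0.65 and -0.63, while Immt, Apoo, Apool, 2410015M20Rik and Chchd6 of the same complex were not called, at -0.13, -0.28, -0.10, -0.25 and 0.19. The prohibitin Phb2 changed by -0.55, whereas its partner Phb was not called at -0.12. Other falls were those of the inner-membrane protease Oma1 at -0.46 and of the intermediate peptidase Mipep, which trims some precursors further, at -0.39. The porin Vdac1, an outer-membrane barrel that SAM inserts, changed by -0.51. Its relative Vdac3 also fell, at -0.32 (limma adjusted p = 0.041), and Vdac2 was not called at -0.07. Dnajc15, a second J-protein of the translocase, changed by -0.50. The rises were the aminopeptidase Xpnpep3 at 0.40 and Pitrm1, which degrades cleaved presequences, at 0.33. Under all 4 scales 6 of these 12 kept their calls (Dnajc19, Pink1, Minos1, Chchd3, Phb2 and Oma1), whereas the 12 calls were lost when either WT library was left out. With all libraries, the unadjusted limma p was under 0.05 for 18 of the 44 genes, against 4950 of all 11888 tested genes. The share in this list was thus near the background.

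Most of the proteins the machinery imports belong to other mitochondrial systems, and 2 of these groups of genes are set beside it. Among 90 tested genes named as oxidative phosphorylation subunits by the start of their symbol, which takes in some assembly factors, 70 fell (77.8%) and 1 rose, with a median log2 change of -0.63. Among 76 mitochondrial ribosomal protein genes 21 fell (27.6%) and 3 rose, with a median of -0.19. Over all tested genes 7.98% fell and 16.9% rose, with a median of 0.13. For the import machinery the falls were 4 of 33 (12.1%) and the median 0.00. After median-of-ratios scaling the medians of the oxidative phosphorylation, ribosomal and import genes were -0.78, -0.34 and -0.14, with 77, 29 and 7 falls. With quantile normalization they were -0.33, -0.22 and -0.06, with 39, 20 and 3 falls. With an equal FPKM sum they were -0.44, 0.00 and 0.19, with 57, 13 and 1 falls. Over all tested genes the median was 0.00 after median-of-ratios scaling, 0.01 with quantile normalization and 0.30 with an equal FPKM sum. The import median lay below the median of all tested genes on each scale. The difference between these groups of genes was not tested, and their genes share the same 4 libraries. Of the 6 cardiomyocyte markers 4 fell as well, and the part of that shift in these falls was not tested.

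**Figure D4:**
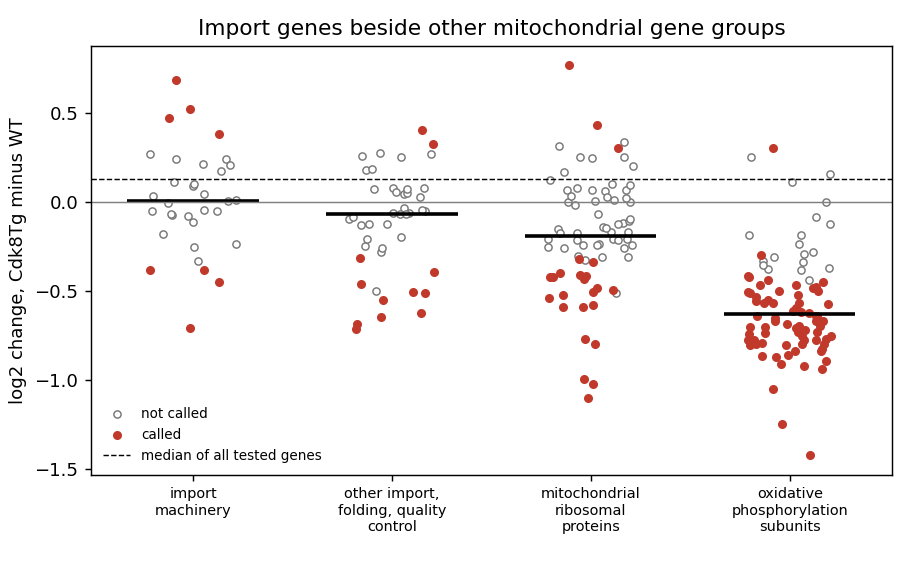
Log2 change, Cdk8Tg minus WT, of each tested gene (points; red where called) in the import machinery, the other genes of import, folding and quality control, the mitochondrial ribosomal proteins and the oxidative phosphorylation subunits, with thick lines at each group's median and a dashed line at the median of all tested genes. The medians are 0.00, -0.07, -0.19 and -0.63 in that order.

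In the authors' deposited table, 33 members were tested. At a q-value under 0.05, 1 was higher (Hspe1) and 3 were lower (Samm50, Timm23 and Timm44). Of all 12393 genes that table tested, 685 were higher and 1045 lower, or 14.0% in both directions together. Samm50 stood there at 103 FPKM in Cdk8Tg and 189 FPKM in WT (authors' deposited table, q = 8.6e-04). Hspe1 stood at 234 FPKM in Cdk8Tg and 162 FPKM in WT in the authors' deposited table (q = 0.027). Hspd1, Pmpcb, Tomm34 and Pam16 were not called in the authors' deposited table. The median log2 ratio in the authors' deposited table was 0.00 over all tested genes and -0.15 over the members.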

How the data were processed

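Ventricular RNA of 2 Cdk8Tg and 2 WT libraries was quantified. TopHat (app version 1.0.0), mm10, Cufflinks and Cuffdiff are named per the submitters' processing notes; annotation, strand setting and scaling are not stated there. The authors deposited FPKM per gene and library, and a comparison table with group FPKM, p-values and q-values per the file headers. Its fold-change column holds spreadsheet errors and was not used.

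Rows with a mean of at least 1 FPKM were tested with limma 3.58.1 (R 4.3.3) with a mean-variance trend on log2(FPKM + 1), Benjamini-Hochberg adjusted over 11888 genes and called under 0.05. Fold changes on this scale understate the change of low genes. The fit was checked on simulated data. Members, lists and tests were chosen with earlier results of these data known. All members could be named, and of the other import genes at most 10 called ones by size of change. Vdac3, Pitrm1 and the uncalled genes beside them were named after their values were seen. Annotation was GENCODE M21 and promoters RefSeq, both on GRCm38; a 31-base stretch shared with transcripts of other genes was counted as shared. Depth was estimated from FPKM under 0.1 in genes with a single transcript over 800 bases, and depth limits concern counting error only. Alternatives were pseudocounts 0.1 and 5, no filter or 5 FPKM, 3 other scales, other variance settings, a replicate block, each library left out, and the authors' calls. The labels state no pairing of same-numbered libraries.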

Additional observations from a re-analysis of the deposited data

How the results depend on the processing

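With 2 libraries a group, the calls rested on few residual degrees of freedom, and a library left out leaves its group with a lone sample whose spread is taken from the other group. All 8 called members kept their direction under every alternative run, although some members called on 1 scale alone had the opposite sign on another: Tomm22, Timm10b and Timm17b, called higher with an equal FPKM sum, were at -0.05, -0.03 and -0.05 after median-of-ratios scaling, and Timm8b, called lower there, was at 0.02 with an equal sum. Calls of the members were 8 of 8 with pseudocounts 0.1 and 5, a minimum of 5 FPKM, robust variance and the replicate block, and 7 of 8 without a variance trend. Members called higher and lower, 4 and 4 as reported, were 1 and 2 with no filter, 2 and 7 after median-of-ratios scaling, and 13 and 1 with an equal FPKM sum, and the authors called 1 higher. Leaving out a library gave 0 to 4 higher and 0 to 5 lower. Their median log2 change, 0.00, was -0.14 with median-of-ratios scaling, -0.06 with quantile normalization, 0.19 with an equal sum, and -0.05 to 0.06 with a library left out. The median of all tested genes, 0.13, was 0.00, 0.01 and 0.30 with median-of-ratios scaling, quantile normalization and an equal sum. Of the other import genes, 2 higher and 10 lower, there were 0 higher and 4 lower with no filter and 1 higher with a minimum of 5 FPKM. There were 0 higher after median-of-ratios scaling, with quantile normalization and by the authors, 11 with an equal sum and 1 without a trend. Leaving out a library gave 0 higher and 0 to 10 lower. Over all genes, 2009 higher and 949 lower, the counts were 641 and 414 with no filter. They were 946 higher after median-of-ratios scaling, 992 after quantile normalization, 4899 with an equal sum and 685 by the authors. Leaving out a library gave 145 to 1531 higher and 142 to 849 lower. The replicate block called 1855 genes higher and 970 lower, 4 and 4 members, and 0 and 9 of the other import genes. Deviations of same-numbered libraries correlated at -0.03 over all tested genes. This single value cannot settle whether the libraries were paired, since a pairing that touches few genes would hardly move it. The cause of these differences was not tested.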
